A study of Mus musculus with 6 samples.

Results

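The genes described here encode the proteasome, the barrel-shaped protease that breaks down proteins tagged with ubiquitin, together with its activators, its inhibitor and the chaperones that help to build it. They were taken as every probe set with exactly 1 gene symbol that starts with Psma to Psmg followed by a digit. This rule found 49 genes on 103 probe sets, among 18193 genes on an array of 45101 probe sets. Of these, 45 genes on 84 probe sets lay above the filter on dim probe sets (a mean signal of 14.7), and 12464 genes did so in all. A probe set shared by Psme2 and Psme2b carries several symbols and was left out. The names Psmc3ip and Psme3ip1 also fit the rule, but their products are not subunits. They form a class of their own below and are included in counts over all members.

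Gene expression was measured with 6 single-colour oligonucleotide arrays in whole mouse kidneys at embryonic day 12.5. The normal group has 3 arrays. The knockout group has 3 more, from embryos where Cre recombinase, carried with Gfp by a Hoxb7-Cre,Gfp transgene, acts on a beta-catenin allele with LoxP sites around exons 2 to 6. The Hoxb7 promoter is active in the ureteric bud epithelium, so the recombinase is expected in only some cells of the organ. The labels do not say whether the normal kidneys carried the transgene or the floxed allele. Dissected kidneys were shared at random among vials, the number of animals per vial is not given, so each p-value reflects only how much these arrays vary, which may in part be technical variation. In whole organs, fewer cells of a type and less RNA per cell cannot be told apart. Titles and source names put 3 arrays in the knockout group, whereas their description field is worded as for normal kidneys, and the groups here follow the titles.

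The proteasome has a core particle of stacked rings, the outer ones of alpha subunits and the inner ones of beta subunits, some of which cut peptide bonds. A regulatory particle sits on the core: its ATPases unfold the substrate and its non-ATPase subunits bind ubiquitin and remove it. Immune cells and cells exposed to interferon swap the cutting subunits for immunoproteasome forms, and when proteasomes are impaired the transcription factor Nfe2l1 is known to raise the whole set through antioxidant response elements in the promoters.

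Such an element has the core TGACNNNGC, which was searched on both strands of RefSeq promoter windows (assembly GRCm38.p6, 250 bases before to 50 after each start). It occurred in 6 of the 41 members with a window, 14.6%, against 14.0% of all 27025 genes in the table. The CCAAT box occurred in 16 of the 41, 39.0%, against 41.1% of all genes. Both shares lay near those of all promoters of this length. The 5 matches that ended before the start of transcription are shown because Nfe2l1 is known to act through such elements. Binding of Nfe2l1 to them was not tested. Each stands in 61 bases of the coding strand with the matched letters in capitals. A match is only a run of letters. The matches of Psmc6 and Psmd12 are on the opposite strand.
Psmb5, chr14:54618008-54618068, minus strand: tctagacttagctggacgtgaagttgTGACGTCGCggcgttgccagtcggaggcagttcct
Psmb6, chr11:70525296-70525356, plus strand: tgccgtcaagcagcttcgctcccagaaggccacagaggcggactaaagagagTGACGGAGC
Psmd9, chr5:123228129-123228189, plus strand: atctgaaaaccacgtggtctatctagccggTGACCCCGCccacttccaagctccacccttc
Psmc6, chr14:45329574-45329634, plus strand: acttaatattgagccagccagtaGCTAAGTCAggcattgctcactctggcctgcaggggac
Psmd12, chr11:107479278-107479338, plus strand: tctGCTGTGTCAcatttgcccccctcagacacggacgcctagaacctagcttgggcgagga
The sixth gene, Psme4, has its match, on the opposite strand, across the start itself.

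Arrays of the same group correlated at 0.961 to 0.977 over the kept probe sets, and arrays of different groups at 0.951 to 0.974. The deposited medians were 24.9 in normal replicate 2 and 25.1 in knockout replicate 3, and ran from 30.5 to 32.1 on the other arrays. Of 13 markers of the early kidney 12 were above the filter on these arrays, and none of them read 0. In the knockout 4 of these 12 were higher and 8 lower, with a median log2 difference of -0.17. Of 11 macrophage markers all were above the filter, and their summed signal was 472 to 1043 on normal and 1035 to 1459 on knockout arrays. All 11 had a positive difference, with a median log2 difference of 0.73 and 0 at a limma adjusted p under 0.05. Of 11 skeletal muscle markers 9 were above the filter, with sums of 489 to 575 on normal arrays and 1260, 6069 and 659 on knockout replicates 1, 2 and 3. All 9 had a positive difference, with a median log2 difference of 1.65 and 0 at a limma adjusted p under 0.05. For 6 of 9 erythroid markers the sums were 10086 to 12420 and 11622 to 14858, mostly from Hbb-y, at 9244 to 10068 and 9673 to 10465. All 6 were higher in the knockout, with a median log2 difference of 0.92 and 0 at a limma adjusted p under 0.05. For 7 of 8 chromaffin and sympathetic markers the sums were 235 to 1806 and 273 to 1256. The part of these cells in the members' values was not tested. The brightest probe set of Ctnnb1, the targeted gene, read 5707, 6760.2 and 6549 on the normal arrays and 6777, 6779 and 6586 on the knockout arrays, a log2 difference of 0.09 (SE 0.08; limma adjusted p = 0.695). The other kept probe sets of Ctnnb1 stood at 0.16 (SE 0.11; limma adjusted p = 0.601) and 0.12 (SE 0.11; limma adjusted p = 0.695). Where the probes of Ctnnb1 lie relative to the deleted exons is not analysed here, so they do not check the labels.

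None of the 45 tested genes of the rule, Psmc3ip and Psme3ip1 included, passed the threshold between knockout and normal arrays (limma with Benjamini-Hochberg adjustment at 0.05, smallest adjusted p = 0.347), where 0.602% of all 12464 genes did. At an unadjusted limma p under 0.05 there were 2 members, the assembly chaperones Psmg2 and Psmg4, both lower in the knockout. That is 4.44% of the members, beside 11.7% of all genes tested (6.14% higher and 5.57% lower). The count was 0 with median centring, with the replicate block and without knockout replicate 1, and 5 without normal replicate 2, 4 of them higher. The same 2 genes were the members whose knockout arrays all lay on one side of all normal arrays, where 19.3% of all genes did (10.2% higher and 9.1% lower). Differences are knockout minus normal on the log2 scale throughout, with the standard error in brackets, and those of the 45 members ran from -0.39 to 0.23.

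The median difference of the members was 0.05, and that of all genes tested was -0.0029. Of the members 34 were higher and 11 lower in the knockout, a share of 75.6% higher beside 49.4% of all genes. Without Psmc3ip and Psme3ip1 it was 33 higher and 10 lower of 43, with a median of 0.05. This balance moved with single arrays. Without normal replicate 1 the median was -0.025, with 17 members higher and 28 lower. Without normal replicate 2 it was 0.12, with 38 higher and 7 lower. Leaving out any other single array kept the median positive. With all kept probe sets of a gene averaged, 28 members were higher and 17 lower. The median within-group SD of the members was 0.12 on the log2 scale, against 0.17 over all genes tested. Over the genes above the members' median brightness it was 0.11. For 42 of the 45 members, 93.3%, the 95% interval of the difference lay between -0.5 and 0.5, that is within a 1.41-fold change either way, and for all 45 it lay between -1 and 1. Among all genes tested 48.8% had an interval within -0.5 and 0.5. Among 774 other genes at least as bright as the median member the share was 93.2%. The genes with a wider interval were Psma7, Psmd3 and Psme3.

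**Figure D1:**
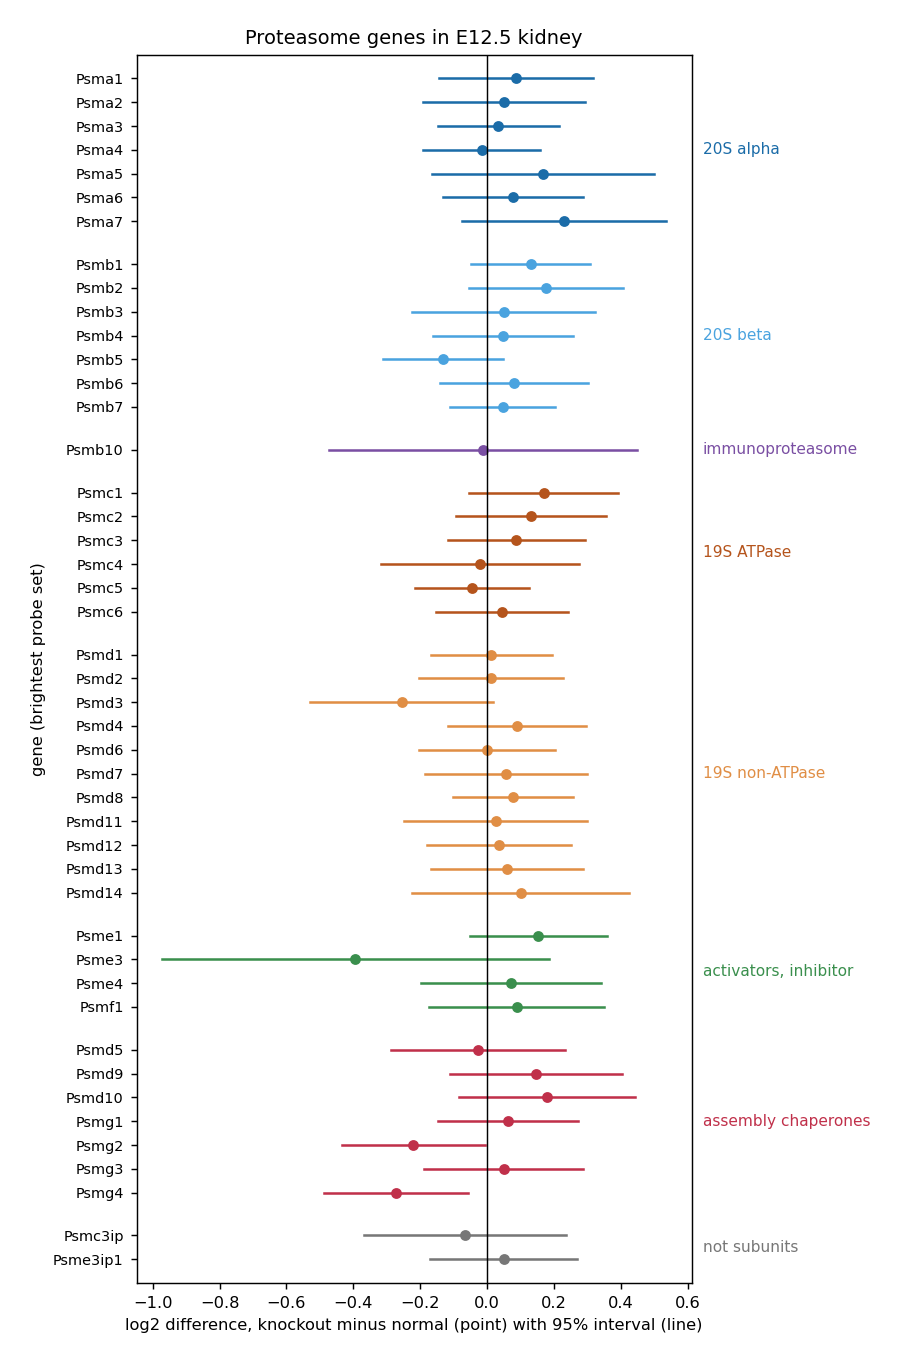
Log2 difference between knockout and normal kidneys of each of the 45 genes by its brightest probe set, with the 95% interval from limma as a line (n = 3 arrays per group) and colours for the subunit classes. All intervals cross 0 except those of Psmg2 and Psmg4, and no point lies beyond -0.39 or 0.23.

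The alpha subunits form the outer rings of the core particle and hold the gate to its chamber. Of 8 alpha genes 7 were tested, of which 6 were higher and 1 lower in the knockout, with a median difference of 0.08 and 0 at an unadjusted p under 0.05. The smallest p belonged to Psma7, which read 1296, 1909 and 1784 on the normal arrays and 1979, 1826 and 1972 on the knockout arrays (values stand in the order of replicates 1, 2 and 3 here and throughout). Its knockout arrays all lay above normal replicates 1 and 3, and knockout replicate 2 lay below normal replicate 2. The difference was 0.23 (0.14; limma adjusted p = 0.546), and 0.06 without normal replicate 1.

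Psma5 showed the same shape, at 2387, 3678 and 3412 on the normal arrays and 3555, 3280 and 3632 on the knockout arrays. The low value was again normal replicate 1, and the other arrays overlapped. Its difference of 0.17 (0.15; limma adjusted p = 0.681) was -0.02 without that array. Psma4, whose N-terminal tail is part of the gate, was nearest to no difference, at 2252, 2434 and 2241 against 2303, 2142 and 2409, a difference of -0.02 (0.08). Psma1, Psma2, Psma3 and Psma6 stood between 0.03 and 0.09. The remaining gene, Psma8, a testis form of the alpha subunit Psma7, read at most 17 on any array and was not tested.

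Of the 7 beta subunit genes of the ordinary core 6 were higher and 1 was lower in the knockout, with a median difference of 0.05. The catalytic subunits went different ways by small amounts. Psmb5, the chymotrypsin-like subunit that proteasome inhibitors used in myeloma bind, read 1864, 2006 and 1817 on the normal arrays and 1694, 1647 and 1848 on the knockout arrays. Knockout replicates 1 and 2 lay below every normal array, while knockout replicate 3 lay above normal replicate 3. The difference was -0.13 (0.08; 95% interval from -0.31 to 0.05; limma adjusted p = 0.553). It was the only core gene besides Psma4 with a negative difference.

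Psmb6, the caspase-like subunit, read 1947, 2502 and 2079 on the normal arrays and 2265, 2261 and 2338 on the knockout arrays. The knockout arrays fell inside the range of the normal ones, and the difference was 0.08 (0.10). For Psmb7, the trypsin-like subunit, the values were 3947, 4219.8 and 3914 against 4078, 4062 and 4335, a difference of 0.05 (0.07; 95% interval from -0.11 to 0.20). These intervals bound the change of each catalytic gene below 1.41-fold in either direction.

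The structural beta genes with the smallest p were Psmb2 and Psmb1. Psmb2 read 646, 719 and 600.2 on the normal arrays and 811, 706 and 702 on the knockout arrays, where knockout replicate 1 stood above the rest, a difference of 0.18 (0.10; limma adjusted p = 0.539). Psmb1 read 2019, 2348 and 2137 against 2318, 2373 and 2419, with 2 knockout arrays above all normal ones, a difference of 0.13 (0.08; limma adjusted p = 0.552). Its other kept probe sets were much dimmer, at 57.1, 51.3 and 50.4 against 71.7, 58.3 and 84, and at 32.1, 45.1 and 49.1 against 55.6, 77.8 and 49.2. Both were higher on every knockout array, at 0.42 (0.20; limma adjusted p = 0.466) and 0.53 (0.26; limma adjusted p = 0.475). With all its kept probe sets averaged, Psmb1 stood at 0.36 (limma adjusted p = 0.205). The other beta genes, Psmb3 and Psmb4, both stood at 0.05.

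**Figure D2:**
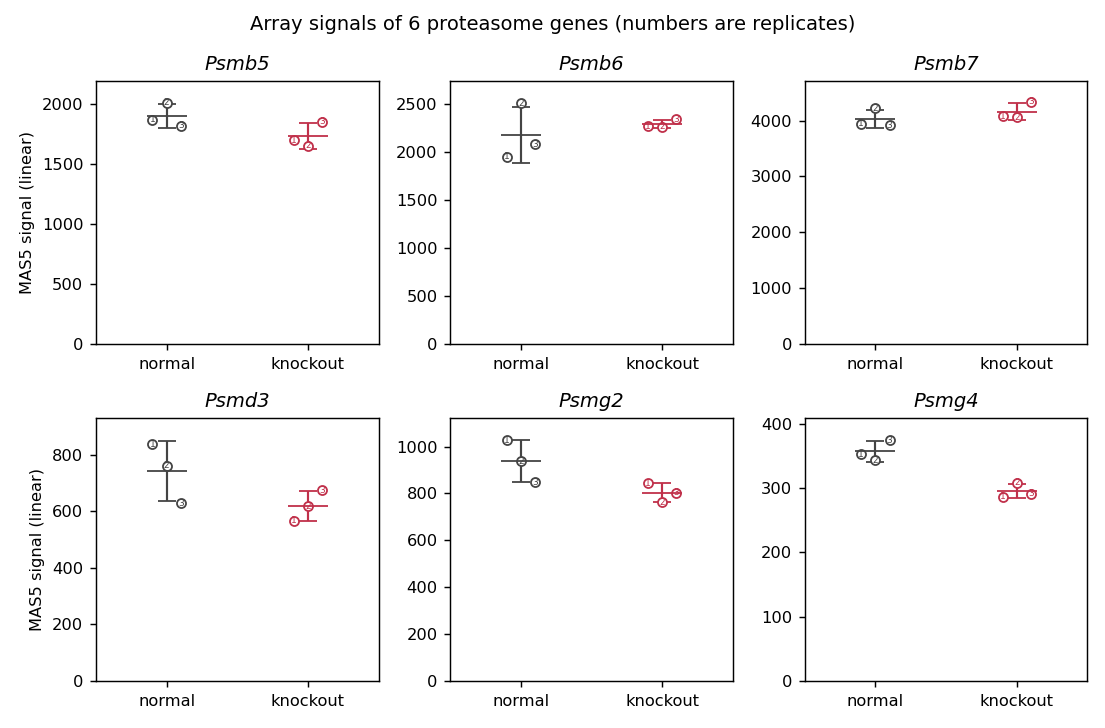
Deposited linear signal on each array (circles numbered by replicate) with the mean and SD of each group (bars, n = 3) for the catalytic core genes Psmb5, Psmb6 and Psmb7, the regulatory particle gene Psmd3 and the assembly chaperones Psmg2 and Psmg4. The groups overlap for the first 4 genes and are separate for Psmg2 and Psmg4.

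Among the immunoproteasome and thymus genes, Psmb8, Psmb9 and Psmb11 lay under the filter. Psmb10, the counterpart of Psmb7, was the only one tested, and read 100.3, 85.9 and 104 on the normal arrays and 71.8, 112 and 109 on the knockout arrays. Knockout replicate 1 was the lowest array and the others overlapped, and the difference was -0.01 (0.20; 95% interval from -0.47 to 0.45). Psmb8, the counterpart of Psmb5, stayed at or below 8.9 on its brighter probe set except for 30.3 in knockout replicate 2, the array with the highest summed macrophage signal (1459) and the highest summed skeletal muscle signal (6069). Psmb9, the counterpart of Psmb6, read 18.2, 3.6 and 9.9 against 15.1, 3.9 and 22, and Psmb11, the thymus form, at most 6.9. The part of macrophages or muscle in these values was not tested.

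The antigen processing partners of the immunoproteasome had 12 of 16 members tested, 4 higher and 8 lower in the knockout, with 0 past the threshold. Groups were separate for 1 higher and 2 lower genes, where they were for 19.3% of all genes. At an unadjusted limma p under 0.05 there was 1, where 11.7% of all genes were. This gene was Calr, an endoplasmic reticulum chaperone that also serves in loading of MHC class I, at 3865, 3761 and 3580.2 on the normal arrays and 2716, 2969 and 2595 on the knockout arrays. All knockout arrays lay below all normal arrays, and the difference of -0.44 (0.08) just missed the threshold (limma adjusted p = 0.0515). Its partner Pdia3 came next, at 3735, 3242 and 3215 against 2997, 2969.9 and 3092, a difference of -0.17 (0.08; limma adjusted p = 0.462).

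In the regulatory particle the 6 ATPases, which form the ring that unfolds and threads the substrate, had a median difference of 0.07, with 4 higher and 2 lower. Psmc1 had the smallest p, at 989, 1186 and 1252 on the normal arrays against 1307, 1251 and 1280.1, a difference of 0.17 (0.10; limma adjusted p = 0.540). Normal replicate 1 was low and knockout replicate 2 lay just below normal replicate 3. Psmc2 followed, at 2074, 2651 and 2551 against 2574, 2616 and 2737, a difference of 0.13 (0.10; limma adjusted p = 0.633). Psmc4 was nearest to 0, at 2414, 3491 and 2858 against 2662, 2746 and 3156, a difference of -0.02 (0.13). Psmc3, Psmc5 and Psmc6 stood at 0.09, -0.05 and 0.04.

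The 11 non-ATPase genes make the scaffold and lid, which catch ubiquitin chains and cut them off. Their median difference was 0.04, with 10 at or above 0.00 and 1 below, and 0 at an unadjusted p under 0.05. The 1 below was Psmd3, a lid scaffold subunit, at 838, 761 and 629 on the normal arrays and 567, 617 and 674 on the knockout arrays. Knockout replicate 3 lay above normal replicate 3, so the groups overlapped, and the difference was -0.26 (0.12; 95% interval from -0.53 to 0.02; limma adjusted p = 0.459). Without normal replicate 1 it was -0.16.

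Psmd4, a ubiquitin receptor, read 1165, 1440 and 1310 on the normal arrays and 1374, 1353 and 1424 on the knockout arrays, a difference of 0.09 (0.09). Psmd14, the deubiquitinase of the lid, spread widely among normal arrays, at 1742, 2663 and 2348 against 2415, 2194 and 2537, a difference of 0.10 (0.14). Psmd6, another lid subunit, was the member nearest to no difference, at 2174, 2634 and 2470 against 2295, 2407 and 2560.1. Its other bright probe set, at 1776, 2384 and 1862 against 2382, 2569 and 2334, differed by 0.29 (0.11; limma adjusted p = 0.403), so the probe sets of this gene do not give 1 answer. Psmd1, Psmd2, Psmd7, Psmd8, Psmd11, Psmd12 and Psmd13 stood between 0.01 and 0.08.

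Activators open the core without the ATPases. Psme1, a subunit of the interferon-inducible activator, read 873, 937 and 805 on the normal arrays and 898, 998 and 1010.1 on the knockout arrays, with 2 knockout arrays above all normal ones. Its difference was 0.15 (0.09; limma adjusted p = 0.548). Psme3, the nuclear activator, had the largest difference of the members, -0.39 (0.26; 95% interval from -0.97 to 0.19; limma adjusted p = 0.583). It read 540 in normal replicate 1, against 301 and 241 in normal replicates 2 and 3 and 239, 249 and 290.2 in the knockout replicates, and the difference was -0.06 without that array.

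The second probe set of Psme3 was more even, at 347, 318 and 303 on the normal arrays and 271, 245 and 299.9 on the knockout arrays. There the knockout arrays all lay below the normal ones, a difference of -0.25 (0.11; limma adjusted p = 0.450). Psme4, an activator linked to breakdown of histones, read 1161, 1620.3 and 1476 against 1423, 1532 and 1479, a difference of 0.07 (0.12), and Psmf1, which was first described as an inhibitor of the core, stood at 0.09 (0.12).

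Assembly chaperones held the members with the smallest p. Psmg4 read 353, 344 and 374 on the normal arrays and 287, 308 and 291 on the knockout arrays. Every knockout array was lower than every normal array, and the difference was -0.27 (0.09; 95% interval from -0.49 to -0.06; limma adjusted p = 0.347). Over all alternatives it stayed between -0.35 and -0.24, with limma adjusted p from 0.276 to 0.620.

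Psmg2 read 1027, 937 and 848 on the normal arrays and 843, 762 and 803 on the knockout arrays. The groups were separate by a narrow margin, between normal replicate 3 and knockout replicate 1, and the difference was -0.22 (0.09; 95% interval from -0.43 to -0.01; limma adjusted p = 0.427). Its second probe set gave a wider separation, at 721, 769 and 742 against 627, 594 and 599.5, a difference of -0.29 (0.08; limma adjusted p = 0.217). With all its kept probe sets averaged the gene stood at -0.26 (limma adjusted p = 0.230). Neither gene passed over all genes tested under any alternative.

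Psmg2 and Psmg4 each work in a pair that guides the alpha ring into shape, Psmg2 with Psmg1 and Psmg4 with Psmg3. The brightest probe sets of the partners were not lower. Psmg1 stood at 0.06 (0.09) and Psmg3 at 0.05 (0.11), though a dim second probe set of Psmg3, at 19.3, 28.2 and 26.5 against 16.8, 14.6 and 15.9, was lower on every knockout array. Of the chaperones of the ATPase ring, Psmd10 stood at 0.18 (0.12) and Psmd9 at 0.15 (0.11). The third, Psmd5, read 668, 881 and 770.4 against 719, 726 and 821, a difference of -0.03 (0.11). As a class, 4 of the 7 chaperones were higher and 3 lower, with a median of 0.05.

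The genes that match the naming rule without being subunits also stayed close to 0. Psmc3ip, which acts in meiotic recombination, read 266, 361 and 339.7 on the normal arrays and 299.6, 287 and 330.2 on the knockout arrays, a difference of -0.07 (0.13). Psme3ip1, whose product binds the Psme3 activator, read 535, 637 and 568 against 579, 580.0 and 638, a difference of 0.05 (0.10).

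Many members shared the same high and low arrays. Normal replicate 1 was the lowest of the 6 arrays for 30 of the 45 genes and normal replicate 2 the highest for 25. In the regulatory particle, normal replicate 1 was the lowest array for 15 of the 17 genes. Over all genes tested these shares were 24.0% lowest in normal replicate 1 and 20.2% highest in normal replicate 2. Over the 774 other bright genes, however, they were 52.1% and 48.2%, beside 66.7% and 55.6% of the members. The same arrays were thus the most frequent extremes among bright genes in general.

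The size of the shift differed by class. Relative to the normal mean of each gene, the alpha genes averaged -0.22, 0.17 and 0.04 on the normal arrays against 0.11, 0.04 and 0.13 on the knockout arrays. The beta genes averaged -0.11, 0.14 and -0.03 against 0.06, 0.03 and 0.09. For the other bright genes the means were -0.08, 0.08 and -0.01 against -0.01, -0.01 and 0.05, a smaller spread between normal replicates 1 and 2 than in either core class. Assembly chaperones averaged -0.04, 0.06 and -0.02 against -0.02, -0.06 and 0.05. Knockout arrays lay closer to each other than normal arrays did for both core classes, as they did for the regulatory particle and the other bright genes.

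When arrays were centred on the 14 core genes, a scaling chosen after seeing the data, Psmb5 had separate groups, at 0.14, -0.07 and -0.07 on the normal arrays against -0.24, -0.23 and -0.14 on the knockout arrays (log2, relative to its normal mean). Its difference was then -0.21 (SE 0.08; limma adjusted p = 0.506). Psmb5 and Psma7 are themselves among the 14 genes that set this scaling. It lowered the differences in general: the median of all genes tested was -0.076 in place of -0.0029. Of the 45 members 17 were then higher and 28 lower. Under the same centring 7 of the 45 members had separate groups, beside 19.8% of all genes. Psma7 was the 1 higher among them, at 0.16, and Psmg4, Psmg2, Psmd3, Psmc5 and Psmd12 were the lower ones besides Psmb5, at -0.35, -0.29, -0.33, -0.12 and -0.04. None passed.

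**Figure D3:**
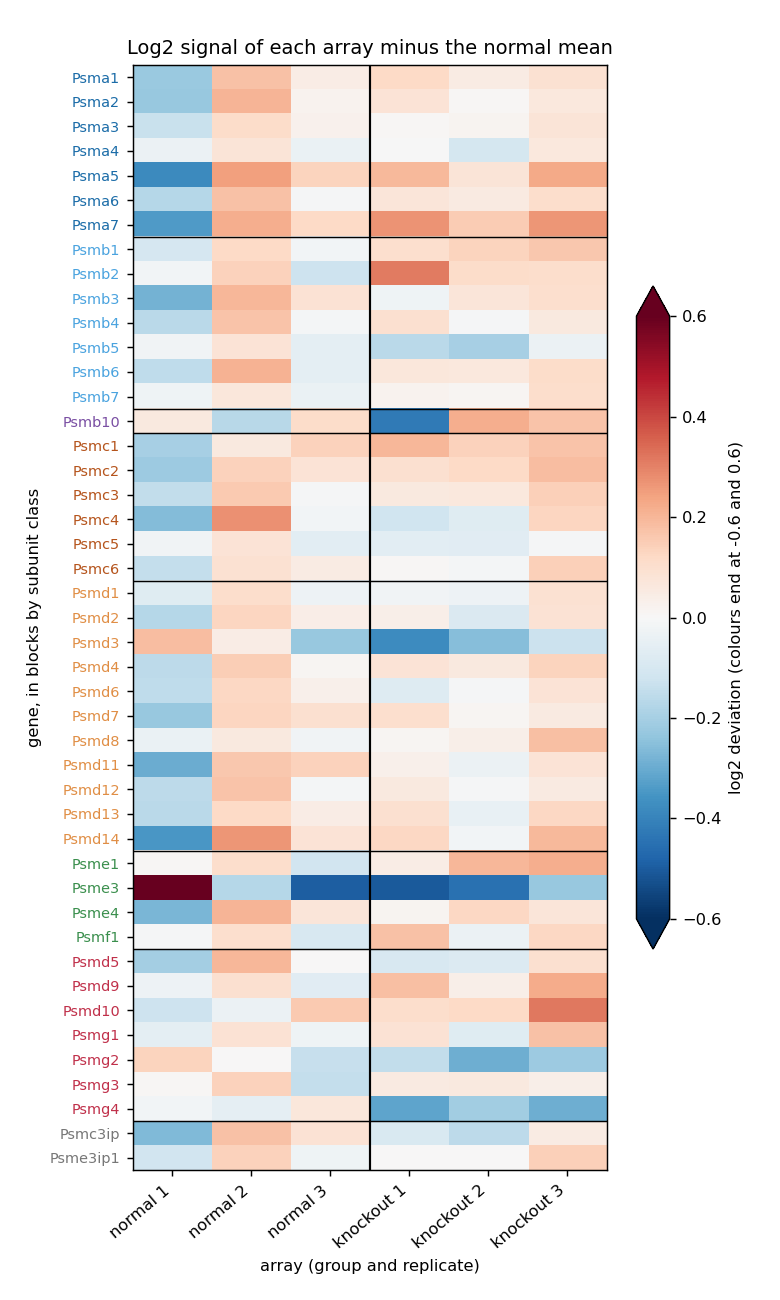
Log2 signal of each gene on each array minus the mean of the normal arrays, in blocks by subunit class (red higher, blue lower). Normal replicate 1 is blue for most core and regulatory genes and normal replicate 2 red, while 6 genes, Psmg2, Psmg4, Psmd3, Psme3, Psmb5 and Psmc5, are below 0 on all 3 knockout arrays.

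**Figure D4:**
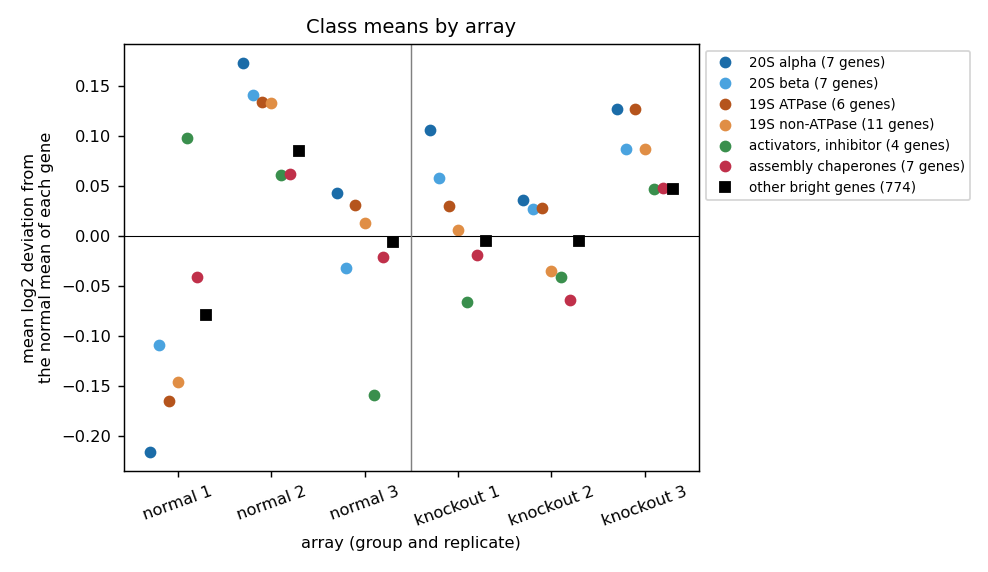
Mean log2 deviation from the normal mean over the genes of each class (coloured circles) and over 774 other bright genes (black squares) on each array. In normal replicate 1 the alpha genes stand at -0.22 and the other bright genes at -0.08, and the knockout arrays lie between the extremes of the normal arrays for the alpha and beta classes.

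Many genes had more than 1 probe set, which gives a second reading. Beyond the brightest, 39 probe sets of 23 members were kept, and 14 of these had the opposite sign to the brightest. None passed the threshold, 5 had an unadjusted limma p under 0.05 and 8 had groups that did not overlap. Over all 84 kept member probe sets, 10 had separate groups, where 17.9% of all kept probe sets did and 0.581% passed the threshold. Apart from Psmg2 and Psmd6, the further probe sets at an unadjusted limma p under 0.05 belonged to Psmb4 at 0.24 (0.10), Psmf1 at 0.58 (0.20) and Psmd11 at -0.33 (0.14). For these genes the brightest probe sets stood at 0.05, 0.09 and 0.03.

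Genes that work with the proteasome were given as lists. Of 21 partners 18 were tested, 8 higher and 10 lower, with 0 past the threshold and 0 at an unadjusted limma p under 0.05. The smallest p belonged to Ecpas, a scaffold that clamps the core to the regulatory particle, at 321, 323 and 315 on the normal arrays and 285, 288 and 266 on the knockout arrays. Every knockout array was lower than every normal one, which held for 3 partners and for 9.1% of all genes. The difference of Ecpas was -0.19 (0.09; limma adjusted p = 0.472). Pomp, the chaperone of the beta ring, read 1818, 2421 and 2207 against 2613, 2239.8 and 2433, a difference of 0.18 (0.11; limma adjusted p = 0.560). In the ubiquitin list 1 of 6 genes was tested, the activating enzyme Uba6, at -0.03 (0.12).

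Of 14 regulators of proteasome genes 13 were tested, 7 higher and 6 lower, with 0 past the threshold and 3 at an unadjusted limma p under 0.05, where 11.7% of all genes were. Groups were separate for 2 higher and 3 lower regulators, where they were for 19.3% of all genes. The lowest p belonged to Mafg, a small Maf protein that pairs with Nfe2l1 on DNA, at 127, 102 and 127 against 95.5, 69.8 and 73.6, a difference of -0.58 (0.18; limma adjusted p = 0.297). Nfe2l1 itself read 314, 309 and 279 on the normal arrays and 227, 265 and 237 on the knockout arrays, a difference of -0.31 (0.11; limma adjusted p = 0.358). Both had knockout arrays entirely below the normal arrays, as did Nfya at -0.19. The third was Ngly1, the enzyme that strips sugars from Nfe2l1 and is needed for its activity, at 0.25 (0.10; limma adjusted p = 0.409). Its knockout arrays, from 299.3 to 333, all lay above the normal ones, from 255 to 279.6, and those of the dim Nfe2l3 did too, at 0.81 (0.39; limma adjusted p = 0.467). The members with an element match in their promoter window had differences of both signs, and no relation to the regulators was tested. Psmb5 was at -0.13, Psmb6 at 0.08, Psmc6 at 0.04, Psmd12 at 0.04, Psmd9 at 0.15 and Psme4 at 0.07.

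The heat shock and proteotoxic stress list, genes that rise when damaged proteins pile up, had 14 of 15 members tested, 2 higher and 12 lower, with a median of -0.08 and 0 past the threshold. At an unadjusted limma p under 0.05 there was 1, where 11.7% of all genes were. Groups were separate for 2 lower and 0 higher genes, where they were for 19.3% of all genes. The smallest p of the list belonged to Hsph1, a chaperone of the Hsp110 family, at 1149, 1432 and 1117 on the normal arrays and 896, 821 and 1003 on the knockout arrays. The groups were separate, and the difference was -0.44 (0.12; limma adjusted p = 0.214). Hsp90aa1 read 6199, 6346 and 6057 against 5644, 5832 and 5484, also separate, a difference of -0.13 (0.07; limma adjusted p = 0.472).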

How the data were processed

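The values are 1 linear signal intensity per probe set and array, which the authors computed with MAS5, as listed in the submitters' processing notes. Its version is not given in the sources used here, nor are its parameters. Each array has a trimmed mean of 150.0 and the medians span 0.37 (log2), so no further scaling was applied. Values of 0 (15 in all, 0 among members) were set to 1.7 before log2. After leaving out 64 controls, 27022 probe sets with a mean log2 signal above the 40th percentile were tested with limma 3.58.1 in R 4.3.3 (lmFit, eBayes with an intensity trend), adjusted by Benjamini-Hochberg over all of them. The fit was tested on simulated data. A gene is its brightest kept probe set over all 6 arrays; symbols were updated through a RefSeq gene table of GRCm38.p6. The number of arrays limits the precision.

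Members and lists were chosen with earlier results of these data known. Named with all array values are the 2 smallest p and the difference nearest 0 in each class, the catalytic genes and their immune counterparts, Psmc1, Psmd4, Psmd14 and members whose groups do not overlap, and of each list the 2 smallest p. Other probe sets, Ngly1 and values of other members were chosen after they were seen. Alternatives covered scaling, filter, pseudocount, variance model, replicate block, probe set averaging, thresholds and leaving out each array.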

Additional observations from a re-analysis of the deposited data

Results flagged for a closer look

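Of the members, 19 probe sets lay under the filter and entered no test. Those flagged had a highest knockout signal above the filter level of 14.7 and more than 2 times the highest normal signal. Other dim probe sets also exceeded every normal array on some knockout array, such as that of Psmb9, at 22 against at most 18.2. The brighter probe set of Psmb8, an immunoproteasome subunit, reached 30.3 in knockout replicate 2, where the normal arrays read at most 4.4 and knockout replicates 1 and 3 read 8.9 and 3.4. A probe set of Psmd9, a chaperone of the ATPase ring, reached 22.7 in the same array and read 16.3 and 14.3 in knockout replicates 1 and 3, above the 9.6, 6.0 and 11.2 of the normal arrays, whereas its brightest probe set differed by 0.15 (log2) with overlapping groups. Among the dim probe sets, 1 of Psma6 (16.3, 8.6 and 16.8 on the normal arrays against 7.4, 6.8 and 8.4) and 1 of Psmg2 (20.8, 13.9 and 16.8 against 13.5, 9.6 and 8.2) were separate in the lower direction. That of Psmd9 was the only dim one separate in the higher direction. No such share was computed over all probe sets under the filter. Over all kept probe sets, which are brighter, 17.9% had separate groups.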

How the results depend on the processing

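No member passed the threshold under any of the 17 planned or 2 added alternatives, except that 2 are counted at an unadjusted p of 0.05. The count of members with separate groups was 0 higher and 2 lower. It became 4 higher with quantile normalization, 4 higher with all kept probe sets of a gene averaged, and 4 higher with arrays centred on other bright genes, and 1 higher and 6 lower with arrays centred on the core genes; the last 2 scalings were chosen after seeing the data. With each array left out it ran from 0 to 18 higher, the highest without normal replicate 2, and from 2 to 5 lower, where 27.2% to 33.9% of all genes had separate groups (28.8% without normal replicate 2) against 19.3% with all arrays. The median difference of the beta class ran from 0.0044 to 0.15 with an array left out, and that of all members from -0.025 to 0.12. Without the filter the immunoproteasome median was 0.40 in place of -0.01, since its dim genes then enter. The replicate numbers did not pair the arrays (correlations of deviations 0.083, -0.108 and -0.201 for numbers 1 to 3), and with the replicate block 0 members and 43 of all genes passed, against 75 without it. The largest correlation of deviations was 0.302, between normal replicate 2 and knockout replicate 3.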
